A study of Homo sapiens with 6 samples.

Results

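The ubiquitin genes described here are those whose symbol starts with PSMA to PSMG and a digit (proteasome), with UBE2 and a letter (ubiquitin-conjugating enzymes, E2), or with USP and a digit (deubiquitinases). Antisense symbols, and pseudogene symbols ending in P and a number, were left out, which removed 11 symbols. Of 14884 named genes on the arrays, 75 matched: 25 UBE2 genes, 49 USP genes and 1 PSM gene. The PSM gene is PSMC3IP, which encodes a cofactor of meiotic recombination and not a subunit of the proteasome. Subunits with a PSM symbol were therefore not analysed here, and the account below is of the E2 and USP families. Among the UBE2 matches, UBE2NL and UBE2DNL are pseudogenes by their RefSeq biotype and were kept because of their symbols. Among the USP matches, USP6NL encodes a GTPase-activating protein and USP27X-DT is a non-coding RNA, so 70 of the 75 are enzymes or enzyme variants by name.

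Total RNA came from Hs578T, a human breast cancer cell line that is mesenchymal in type and lacks the oestrogen receptor. One group had received siRNA against CSRP2, which encodes an actin-bundling LIM domain protein, and the other a non-targeting siRNA. Both groups were transfected with a lipid reagent, grown with 10% serum and 0.01 mg/ml insulin, moved to new wells after 24 h and harvested 48 h later. Each group, siCSRP2 and siControl, held 3 Affymetrix HuGene 2.0 arrays numbered 1 to 3, and each array gave 1 log2 value per probe set.

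Ubiquitin is attached to proteins by a relay. An E1 enzyme activates it, an E2 enzyme carries it on a cysteine, and an E3 ligase passes it to the substrate. Chains of different linkage mark proteins for the proteasome, for DNA repair or for signalling, and related modifiers such as ISG15, NEDD8 and SUMO use their own E1 and E2. USP enzymes are the largest class of proteases that take ubiquitin off again.

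The targeted gene did not check the labels. CSRP2 measured 3.25, 3.76 and 4.26 on the siCSRP2 arrays, against 3.69, 4.01 and 4.35 on the siControl arrays. The groups overlapped, and the log2 difference of -0.26 (siCSRP2 minus siControl, SE 0.26) did not pass (limma, adjusted p = 0.583). CSRP2 was lower in all 3 pairs of equal replicate number. With that number fitted as a block in limma it did not pass either (SE 0.12, adjusted p = 0.188). For this reason siCSRP2 below means the arrays so labelled. The markers were in part those of the line. Vimentin, VIM, a mesenchymal filament, averaged 7.22 ± 0.23 on siCSRP2 and 8.04 ± 0.11 on siControl arrays (SD, n = 3 each), far above the median gene level of 2.99. ESR1, the oestrogen receptor gene, averaged 2.76 ± 0.20 on siCSRP2 and 2.57 ± 0.08 on siControl arrays, below that median. Of 6 mesenchymal markers, all above the median level, 4 fell (VIM, FN1, SNAI2 and AXL). That is 66.7%, beside 12.7% called lower among all genes above that level. With 1 array left out, AXL passed in 5 of 6 fits, VIM in 3, SNAI2 in 2 and FN1 in 1. SNAI2 did not pass after quantile normalization or cyclic loess. Of 6 measured epithelial and luminal markers none passed, and 4 lay above the median level. EPCAM averaged 3.34 on siCSRP2 and 3.21 on siControl arrays, GATA3 3.83 and 3.65, and KRT8 3.66 and 3.71. KRT18, a keratin of simple epithelia, lies on chromosome 12, but its probe set is numbered among those of chromosome 3 genes. Whether the signal is that of KRT18 itself was not tested. The KRT18 value was high in both groups, with 7.37 ± 0.21 on siCSRP2 and 8.11 ± 0.40 on siControl arrays. It differed by -0.74 (SE 0.20, adjusted p = 0.0635, and 0.00746 with the block), and by -0.97 without siControl 3 (adjusted p = 0.00269). The part of this marker change in the results below was not tested. CD68, a macrophage marker that other cells also carry in lysosomes, averaged 8.24 ± 0.28 on siCSRP2 and 7.60 ± 0.30 on siControl arrays (adjusted p = 0.0778). siControl 3 lay within the siCSRP2 range for CD68, and without it CD68 rose (0.81, adjusted p = 0.00971). siControl 3 stood apart from the other controls: on the first principal component it lay at 2.05, siControl 1 and 2 at 31.5 and 31.2, and the siCSRP2 arrays between -30.7 and -14.0. It was thus the control nearest to the siCSRP2 arrays, and leaving it out tends to widen the differences. Values without siControl 3 are therefore given as descriptions and are no separate support. With 3 arrays a group, array number is what bounds precision here. The labels do not say that replicates were separate cultures, so a p-value here reflects array-to-array spread alone, part of which can be technical.

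Of the 75 genes, 6 fell in siCSRP2 and none rose at an adjusted p under 0.05 in limma, with adjustment over all genes. That is 8% of the members, beside 7.34% of all genes called in either direction, 6.54% called lower and 0.8% called higher. The 6 genes are the E2 genes UBE2L6, UBE2V1 and UBE2Q1 and the deubiquitinase genes USP28, USP46 and USP48. All 6 lay among the 56 members whose mean was above the median gene level, which makes 10.7% of these 56, beside 12.7% called lower and 1.41% called higher among all genes above that level. A fall of at least 2-fold was called for 1 member, UBE2L6, beside 1.73% of all genes. After quantile normalization the members' calls split into 1 higher and 4 lower. The share of ubiquitin genes that fell was thus near the background, and what follows describes single genes. In bulk RNA, fewer cells of a kind and less RNA per cell cannot be told apart.

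**Figure D1:**
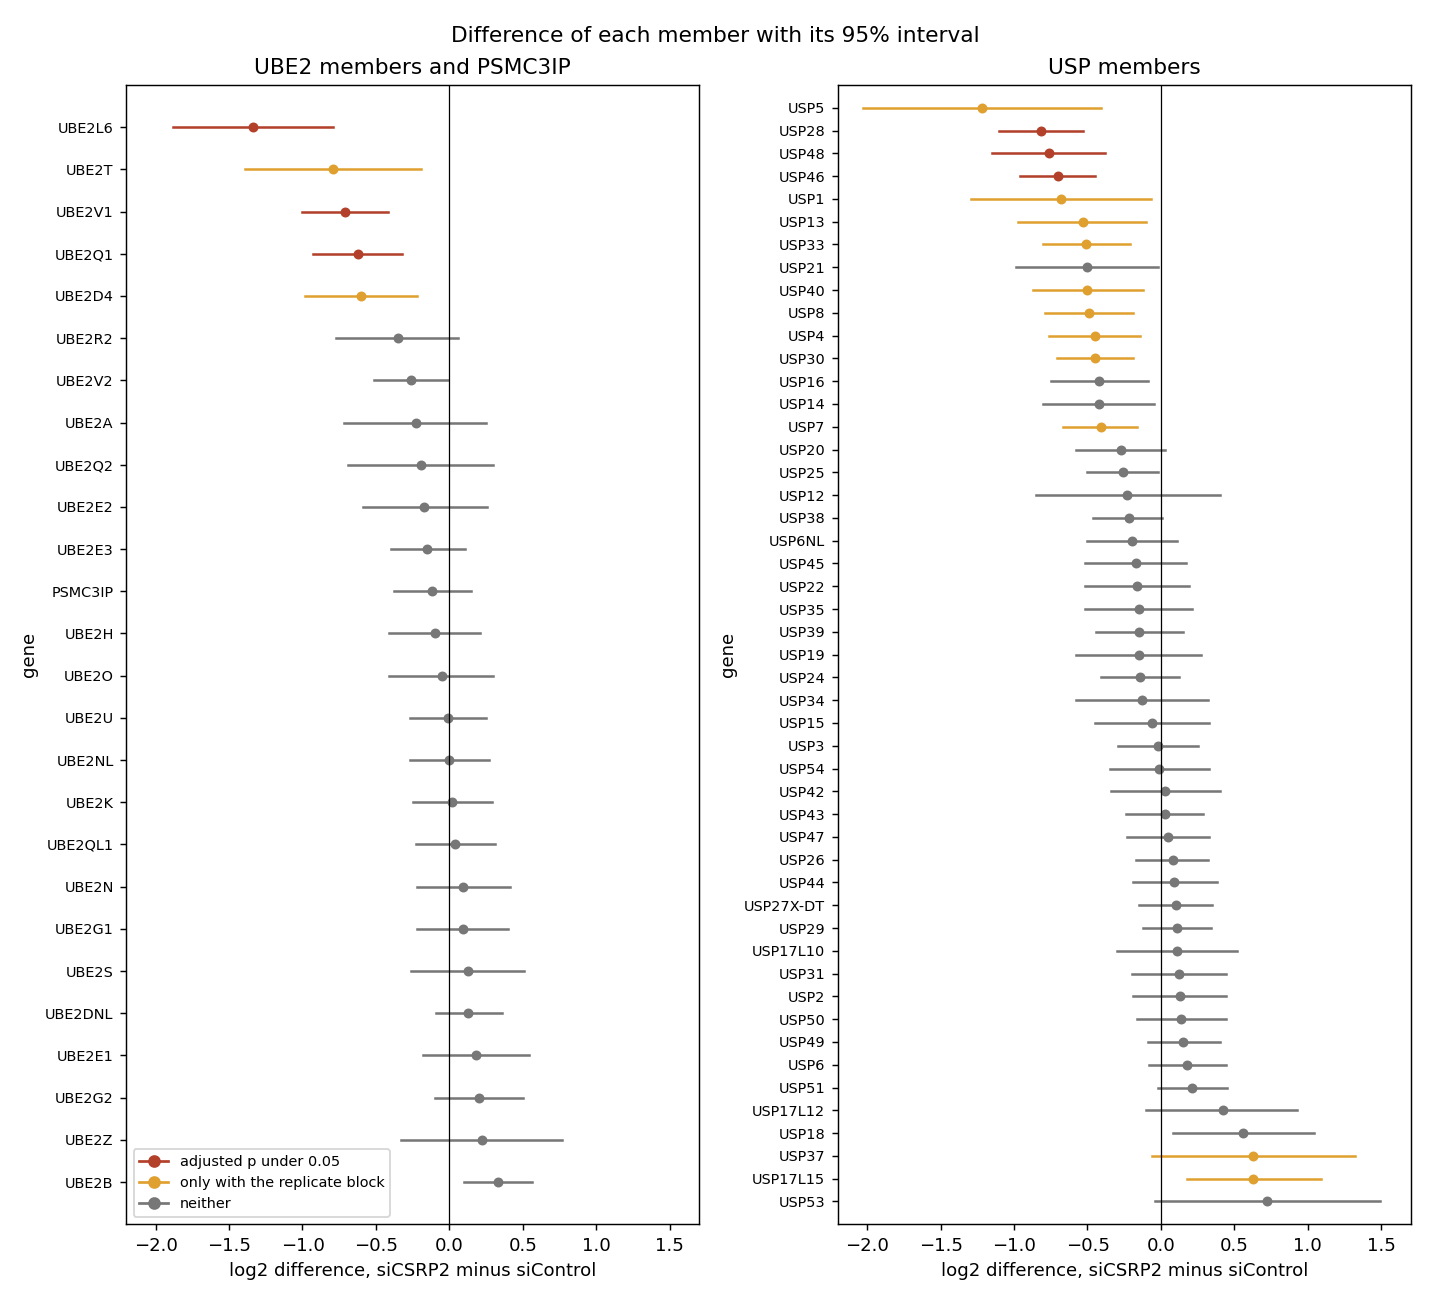
Log2 difference (siCSRP2 minus siControl, x axis) of each of the 75 genes (rows) with its 95% interval from limma. Points are coloured by whether the gene passed the test, passed only with the replicate number as a block, or neither. The 6 that passed, from UBE2L6 at -1.34 to UBE2Q1 at -0.62, all lie left of 0.

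UBE2L6 had the largest difference of the 75 genes. It encodes the E2 that carries ISG15, an interferon-induced relative of ubiquitin, and that can carry ubiquitin too. UBE2L6 measured 4.12, 3.46 and 3.28 on the siCSRP2 arrays, against 5.15, 5.14 and 4.58 on the siControl arrays. The groups did not overlap, siCSRP2 1 being the highest of its group and siControl 3 the lowest of its own. The fall was 2.52-fold (log2 difference -1.34, SE 0.24, 95% interval -1.88 to -0.79, adjusted p = 0.0169). Without siControl 3 the difference was -1.53 (adjusted p = 0.00219). Its promoter is shown because the gene moved most and because ISG15 genes are commonly driven by an interferon element. The RefSeq table (GRCh38.p14) gives 2 windows, and the one of the more downstream start, chr11:57567623-57567922 on the minus strand, holds 250 bases before and 50 after the start, with no capitals since the element was not found.
UBE2L6: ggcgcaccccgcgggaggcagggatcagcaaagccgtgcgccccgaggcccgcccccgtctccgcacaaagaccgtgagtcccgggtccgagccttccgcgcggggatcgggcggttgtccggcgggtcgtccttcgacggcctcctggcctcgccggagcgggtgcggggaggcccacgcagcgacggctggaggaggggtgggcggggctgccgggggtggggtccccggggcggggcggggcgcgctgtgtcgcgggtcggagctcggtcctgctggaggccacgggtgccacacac
The interferon-stimulated response element, searched on both strands as GAAA, any 2 bases and GAAA, was in neither window of UBE2L6 and in none of the 56 members that have a window in the table, beside 3.57% of 35116 windows of all genes. The absence of these letters from a window of this length says nothing about the factor.

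The other genes of the ISG15 relay, chosen after their values were seen, were set beside UBE2L6. UBA7, the E1 that activates ISG15, measured 3.03, 3.11 and 2.49 on siCSRP2 arrays and 4.77, 4.72 and 3.69 on siControl arrays. UBA7 fell, with no overlap (log2 difference -1.51, SE 0.29, adjusted p = 0.0215). HERC5, the main ISG15 ligase, moved the other way: it measured 5.10, 5.53 and 6.01 on siCSRP2 arrays, against 3.98, 4.17 and 4.16 on siControl arrays. It rose 2.72-fold (1.44, SE 0.21, adjusted p = 0.00946). ISG15 itself measured 6.56, 7.81 and 8.33 on siCSRP2 and 6.78, 6.52 and 7.39 on siControl arrays, and the groups overlapped (0.67, SE 0.41, adjusted p = 0.366). USP18, the protease that removes ISG15 and restrains interferon receptor signalling, measured 5.23, 5.77 and 5.72 on siCSRP2 arrays and 5.18, 5.28 and 4.58 on siControl arrays. Its log2 difference was 0.56 (SE 0.21, 95% interval 0.08 to 1.04) and did not pass (adjusted p = 0.148). It was 0.34 without siControl 3 (adjusted p = 0.225). The E1 and E2 were thus lower and the ligase higher in these arrays, with ISG15 and USP18 undecided.

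**Figure D2:**
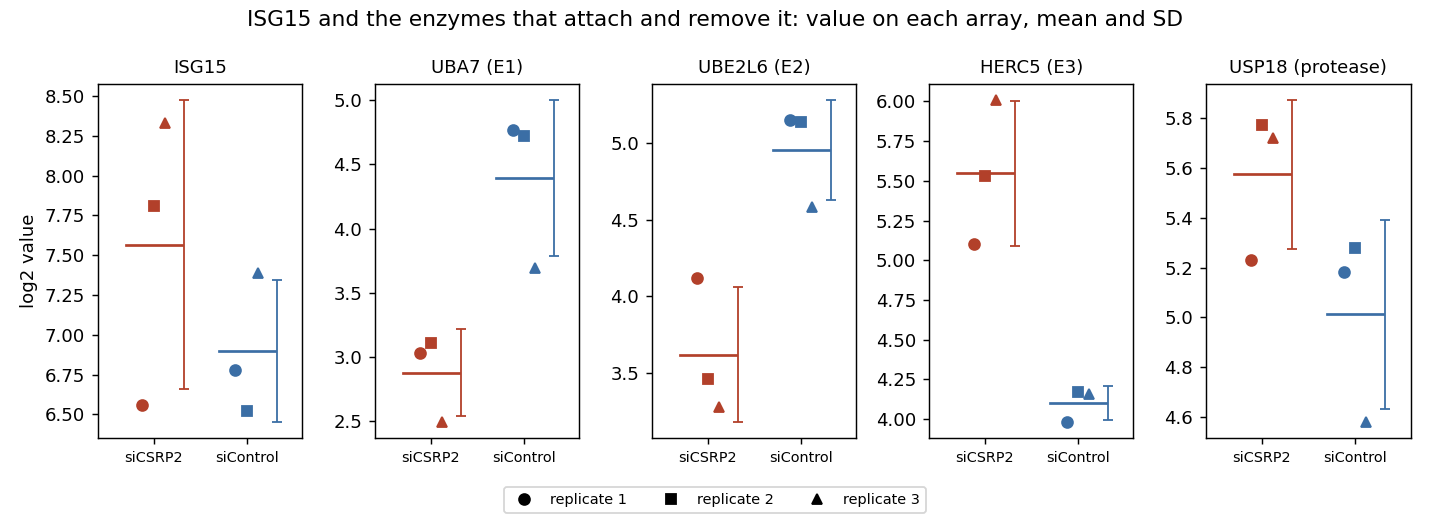
Log2 value (y axis, its own scale in each panel) of ISG15, UBA7, UBE2L6, HERC5 and USP18 on each array, siCSRP2 left of siControl. Symbols mark replicate numbers, horizontal lines the means and bars the SD. UBA7 and UBE2L6 lie lower and HERC5 higher on every siCSRP2 array, while ISG15 and USP18 overlap.

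UBE2V1 encodes an E2-like protein without a catalytic cysteine, which pairs with UBE2N to build lysine 63 chains used in signalling. It measured 5.53, 5.94 and 5.76 on siCSRP2 arrays, against 6.45, 6.53 and 6.40 on siControl arrays. Every siCSRP2 value lay below every control, and the controls lay close together. UBE2V1 fell 1.64-fold (log2 difference -0.71, SE 0.13, adjusted p = 0.0174). Its partner UBE2N measured 2.77, 3.08 and 3.12 on siCSRP2 and 2.87, 2.75 and 3.08 on siControl arrays, with a difference of 0.09 (95% interval -0.22 to 0.41, adjusted p = 0.727). UBE2V2, the other partner of UBE2N, measured 3.76, 3.78 and 3.81 on siCSRP2 arrays, against 4.02, 3.93 and 4.18 on siControl arrays. These groups did not overlap, but the difference of -0.26 (SE 0.11) did not pass (adjusted p = 0.194). UBE2N lay near the median gene level on all arrays.

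UBE2Q1, an E2 with a long extension before its catalytic domain, measured 4.41, 4.36 and 4.05 on siCSRP2 arrays, against 5.05, 4.86 and 4.79 on siControl arrays. It fell 1.54-fold (log2 difference -0.62, SE 0.13, adjusted p = 0.0309), with no overlap of the groups. It did not pass after quantile normalization or cyclic loess, or with a trended robust spread. Its relative UBE2Q2 measured 4.18, 3.65 and 3.71 on siCSRP2 and 4.43, 4.05 and 3.63 on siControl arrays, overlapping groups with a difference of -0.19 (SE 0.22, adjusted p = 0.628).

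USP28 binds the DNA damage adaptor TP53BP1 and stabilises MYC. It had the smallest adjusted p of the 75 genes. USP28 measured 3.32, 3.06 and 3.23 on the siCSRP2 arrays, against 4.13, 4.07 and 3.85 on the siControl arrays. The fall was 1.76-fold (log2 difference -0.82, SE 0.12, 95% interval -1.10 to -0.53, adjusted p = 0.0107). USP25, its closest relative, measured 4.95, 4.87 and 4.84 on siCSRP2 and 5.22, 5.04 and 5.18 on siControl arrays. The difference for USP25, -0.26 (SE 0.11), did not pass (adjusted p = 0.180), although its groups did not overlap either.

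USP46 works with the WD40 protein WDR48, as do USP1 and USP12. It measured 2.79, 2.87 and 2.69 on siCSRP2 arrays and 3.55, 3.56 and 3.35 on siControl arrays, so that its siCSRP2 values lay below the median gene level and its control values above. USP46 fell 1.63-fold (log2 difference -0.70, SE 0.11, adjusted p = 0.0125). USP12, a close relative of USP46, measured 4.33, 5.05 and 5.14 on siCSRP2 and 4.90, 4.69 and 5.61 on siControl arrays, with wide overlap (-0.23, SE 0.27, adjusted p = 0.658). WDR48, chosen after its values were seen, measured 5.16, 5.17 and 5.28 on siCSRP2 arrays, against 5.50, 5.46 and 5.66 on siControl arrays. Its groups did not overlap, and the difference of -0.33 (SE 0.11) did not pass (adjusted p = 0.0997).

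USP48, a nuclear enzyme that acts on histone H2A, measured 4.85, 4.28 and 4.56 on siCSRP2 arrays, against 5.57, 5.26 and 5.15 on siControl arrays. USP48 fell without overlap (log2 difference -0.76, SE 0.17, adjusted p = 0.0343). Like UBE2Q1, it did not pass after quantile normalization (-0.58) or cyclic loess.

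**Figure D3:**
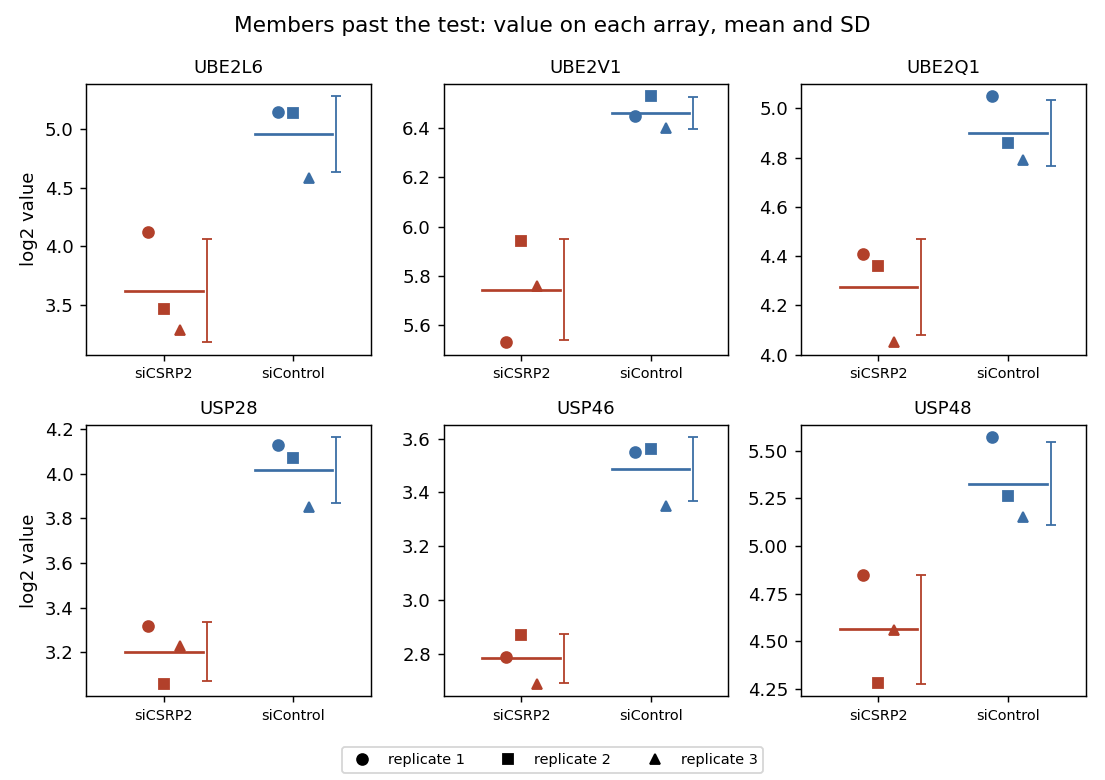
Log2 value (y axis, its own scale in each panel) on each array of the 6 genes that passed, siCSRP2 left of siControl. Symbols mark replicate numbers, lines the means and bars the SD (n = 3 arrays a group). In every panel all siCSRP2 values lie below all siControl values.

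None of these 6 calls held in every fit with 1 array left out. Of the 6 such fits, UBE2V1, USP28 and USP46 each passed in 3, and UBE2L6, UBE2Q1 and USP48 in 2. None of the 75 genes passed without siControl 1 or without siControl 2, and 2 did without siCSRP2 2, 1 without siCSRP2 3, 7 without siCSRP2 1 and 23 without siControl 3. The calls over all genes, 1093 with all arrays, were 157 without siControl 1, 91 without siControl 2 and 2620 without siControl 3. They were 194 without siCSRP2 2, 285 without siCSRP2 3 and 877 without siCSRP2 1. In the last fit they were thus fewer, while the members called were more. The differences themselves moved less: with 1 array left out, UBE2L6 lay between -1.59 and -1.16, UBE2V1 between -0.81 and -0.61, UBE2Q1 between -0.69 and -0.51, USP28 between -0.90 and -0.74, USP46 between -0.77 and -0.66, and USP48 between -0.91 and -0.62.

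Arrays of equal replicate number deviated together in these same values, while no label states a shared batch. Calls that rest on this pairing are therefore given as descriptions and are no separate support. The replicate number was fitted as a block. With it, 19 members passed, 17 lower and 2 higher, which is 25.3% of the 75 beside 15.8% of all genes (13.1% lower, 2.67% higher). Of the 56 members above the median level, 16 fell with the block, 28.6%, beside 25.1% of all genes above that level. All 6 genes above were among the 19, with adjusted p from 0.0014 (UBE2L6) to 0.00844 (UBE2Q1). The other 13 are UBE2D4, UBE2T, USP1, USP4, USP5, USP7, USP8, USP13, USP30, USP33 and USP40, which fell, and USP37 and USP17L15, which rose. When the block was fitted after quantile normalization, USP4, USP7, USP8, USP30 and USP33 no longer passed. In 11 of these 13, siControl 3 was the control nearest to the siCSRP2 mean. Without siControl 3 and without the block, 23 members passed (19 lower, 4 higher, beside 14.7% and 2.87% of all genes, 17.6% in all), 18 of them among the 19, USP7 being the exception (adjusted p = 0.0544). Above the median level 18 members fell without siControl 3, 32.1%, beside 27.4% of all such genes. With any other single array left out, UBE2D4, UBE2T, USP1, USP5, USP13, USP14, USP17L15 and USP37 did not pass.

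**Figure D4:**
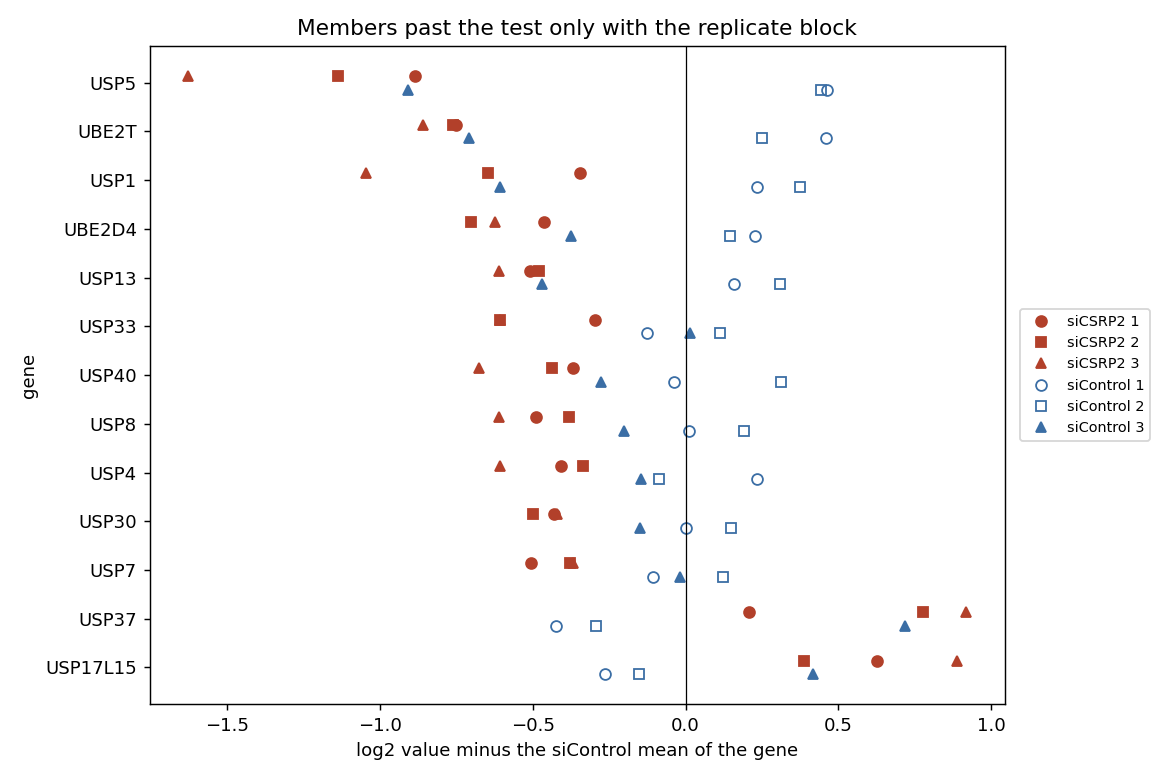
Log2 value minus the siControl mean of the gene (x axis) for the 13 genes that passed only with the replicate block, with siCSRP2 arrays in red above siControl arrays in blue in each row. The filled blue triangle is siControl 3, which lies nearer to the siCSRP2 arrays than the other controls in 11 of 13 rows.

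UBE2T and USP1 act on the same substrate in DNA crosslink repair. UBE2T, the E2 that puts single ubiquitins on FANCD2 and FANCI, measured 3.27, 3.26 and 3.16 on siCSRP2 arrays, against 4.48, 4.27 and 3.31 on siControl arrays. Only siControl 3 came close to the siCSRP2 values. UBE2T differed by -0.79 (SE 0.26, adjusted p = 0.108, and 0.0293 with the block), and by -1.14 without siControl 3 (adjusted p = 0.000793). USP1, which removes the ubiquitin from FANCD2 and from PCNA, measured 5.88, 5.58 and 5.18 on siCSRP2 arrays and 6.46, 6.60 and 5.62 on siControl arrays. Here siControl 3 lay inside the siCSRP2 range. The USP1 difference was -0.68 (SE 0.27, adjusted p = 0.166, and 0.0133 with the block), and -0.98 without siControl 3 (adjusted p = 0.00786).

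The promoters of UBE2T and USP1 are shown because both genes had siControl 3 as their lowest control and because many cell cycle genes carry a CHR element, searched as TTTGAA, and CCAAT boxes, both on either strand and not overlapping each other here. Each window, from RefSeq (GRCh38.p14), runs from 250 bases before to 50 after a start, and capitals mark the matches. The window of UBE2T lies at chr1:202341887-202342186 on the minus strand, and the downstream one of the 2 windows of USP1 at chr1:62436799-62437098 on the plus strand.
UBE2T: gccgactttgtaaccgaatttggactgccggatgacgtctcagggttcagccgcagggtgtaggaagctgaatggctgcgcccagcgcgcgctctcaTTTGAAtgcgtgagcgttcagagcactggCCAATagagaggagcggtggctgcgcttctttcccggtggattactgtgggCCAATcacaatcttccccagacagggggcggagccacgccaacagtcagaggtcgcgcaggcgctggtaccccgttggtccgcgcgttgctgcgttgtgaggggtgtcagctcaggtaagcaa
USP1: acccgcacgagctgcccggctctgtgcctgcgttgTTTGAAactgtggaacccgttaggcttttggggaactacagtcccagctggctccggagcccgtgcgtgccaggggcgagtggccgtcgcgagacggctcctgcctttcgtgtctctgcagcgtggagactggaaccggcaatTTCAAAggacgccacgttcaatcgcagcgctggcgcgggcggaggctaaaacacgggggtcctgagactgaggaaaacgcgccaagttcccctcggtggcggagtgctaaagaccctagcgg
UBE2T had 1 CHR match, 153 bases before the start, and 2 CCAAT matches, at 124 and 73 bases. This USP1 window had 2 CHR matches, at 215 and 72 bases before the start, and no CCAAT, and the other USP1 window had 2 CCAAT and no CHR matches. A CHR match stood in 15.2% of all 35116 windows and in 6 of 56 members (UBE2T, UBE2U, USP1, USP14, USP30 and USP38), and a CCAAT match in 34.6% of windows and 19 of 56 members. A member counts if any of its windows holds a match, so member counts and shares of windows are not in the same unit. The matches are descriptions of letters and not of sites.

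USP5 takes apart unanchored ubiquitin chains, and USP13 is its closest relative. USP5 measured 4.31, 4.06 and 3.57 on siCSRP2 arrays, against 5.66, 5.64 and 4.29 on siControl arrays. Its difference of -1.22 (SE 0.36) was the second largest of the members but did not pass (adjusted p = 0.0762), and siControl 3 lay within the siCSRP2 range. It passed with the block (adjusted p = 0.00337) and without siControl 3 (-1.67, adjusted p = 0.000966). USP13 measured 2.88, 2.91 and 2.78 on siCSRP2 and 3.55, 3.70 and 2.92 on siControl arrays, a difference of -0.53 (SE 0.19, adjusted p = 0.130, and 0.0421 with the block). Without siControl 3 the USP13 difference was -0.77 (adjusted p = 0.00330). Both genes showed the same split of the controls, with siControl 3 low.

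USP8, USP30 and USP7 had groups that lay apart and did not pass without the block. Their calls with the block were lost after quantile normalization (adjusted p = 0.0956 for USP8, 0.0564 for USP30 and 0.171 for USP7). USP8, which acts on receptors at the endosome, measured 4.55, 4.66 and 4.43 on siCSRP2 arrays, against 5.05, 5.23 and 4.84 on siControl arrays. The difference was -0.49 (SE 0.13, adjusted p = 0.0584, and 0.0184 with the block). USP30, an enzyme of the outer mitochondrial membrane that opposes Parkin, measured 3.28, 3.21 and 3.29 on siCSRP2 and 3.71, 3.86 and 3.56 on siControl arrays (-0.45, SE 0.11, adjusted p = 0.0503, and 0.0379 with the block). For USP7, which stabilises MDM2 and p53, values were 5.20, 5.33 and 5.34 on siCSRP2 arrays and 5.60, 5.83 and 5.69 on siControl arrays. It differed by -0.41 (SE 0.11, adjusted p = 0.0604, and 0.0357 with the block).

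USP33, which acts on the receptor ROBO1, missed the threshold by the least (-0.51, SE 0.13, adjusted p = 0.0502, and 0.0395 with the block). After quantile normalization with the block its adjusted p was 0.186. It measured 5.08, 4.77 and 4.77 on siCSRP2 arrays, against 5.25, 5.49 and 5.39 on siControl arrays. USP4 measured 4.25, 4.32 and 4.05 on siCSRP2 and 4.89, 4.57 and 4.51 on siControl arrays (-0.45, SE 0.14, adjusted p = 0.0844, and 0.0379 with the block). USP4 too lost this call after quantile normalization with the block (adjusted p = 0.195). USP15, its closest relative, measured 4.73, 4.93 and 5.35 on siCSRP2 and 5.11, 4.89 and 5.21 on siControl arrays, and overlapped (-0.06, 95% interval -0.45 to 0.33). USP40 was dim, at 2.72, 2.65 and 2.41 on siCSRP2 and 3.05, 3.40 and 2.81 on siControl arrays (-0.50, SE 0.16, adjusted p = 0.107, and 0.0312 with the block).

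UBE2D4, a member of the UBE2D group of E2 enzymes that serve many ligases, measured 3.14, 2.90 and 2.98 on siCSRP2 arrays, against 3.83, 3.75 and 3.23 on siControl arrays. Its difference was -0.60 (SE 0.17, adjusted p = 0.0661, and 0.0233 with the block). The groups lay apart, with siControl 3 the nearest control, and without it the difference was -0.79 (adjusted p = 0.00343).

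Higher values were fewer. USP37, which removes ubiquitin from cyclin A, measured 4.42, 4.99 and 5.13 on siCSRP2 arrays, against 3.79, 3.92 and 4.93 on siControl arrays (0.63, SE 0.30, adjusted p = 0.251, and 0.0357 with the block). Without siControl 3 the USP37 difference was 0.99 (adjusted p = 0.00941). USP17L15 measured 4.13, 3.89 and 4.39 on siCSRP2 and 3.24, 3.35 and 3.92 on siControl arrays (0.63, SE 0.20, adjusted p = 0.0936, and 0.0120 with the block). Without siControl 3 the USP17L15 difference was 0.84 (adjusted p = 0.00703). USP17L genes are near-identical tandem copies, so this signal cannot be assigned to 1 copy. USP53 had the highest difference of the 75, 0.72 (SE 0.34, adjusted p = 0.236), with 4.82, 4.80 and 4.82 on siCSRP2 arrays and 3.52, 3.72 and 5.03 on siControl arrays. siControl 3 lay above all siCSRP2 arrays for USP53, and without it the difference was 1.19 (adjusted p = 0.000596).

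UBE2B and UBE2A are the human counterparts of yeast RAD6, which ubiquitinates PCNA and histone H2B. UBE2B measured 4.43, 4.43 and 4.32 on siCSRP2 arrays, against 4.10, 4.04 and 4.04 on siControl arrays. Its groups lay apart, but the difference of 0.33 (SE 0.10) did not pass (adjusted p = 0.0842), although it did after quantile normalization or cyclic loess. UBE2A measured 4.11, 4.53 and 4.99 on siCSRP2 and 4.75, 4.99 and 4.59 on siControl arrays, and the groups overlapped (-0.23, SE 0.21, adjusted p = 0.548). Whether the pair differ from each other was not tested.

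Further members did not pass with or without the block. USP14, the deubiquitinase bound to the proteasome, measured 6.57, 6.69 and 6.52 on siCSRP2 arrays, against 7.23, 7.18 and 6.64 on siControl arrays (-0.42, SE 0.16, adjusted p = 0.162). It passed without siControl 3 (-0.61, adjusted p = 0.00882). USP22, of the SAGA transcription complex, measured 6.56, 7.16 and 6.92 on siCSRP2 and 7.05, 7.09 and 6.99 on siControl arrays (-0.16, SE 0.16, adjusted p = 0.570). UBE2S, which extends lysine 11 chains with the anaphase-promoting complex, measured 4.06, 4.62 and 4.13 on siCSRP2 and 4.26, 4.23 and 3.94 on siControl arrays, with overlap (0.13, 95% interval -0.26 to 0.51, adjusted p = 0.690). UBE2G2, an E2 of endoplasmic reticulum quality control, measured 3.92, 4.17 and 4.16 on siCSRP2 and 3.74, 4.09 and 3.83 on siControl arrays (0.20, SE 0.13, adjusted p = 0.409). UBE2R2, named for its p, which builds lysine 48 chains with cullin ligases, differed by -0.35 (SE 0.18, adjusted p = 0.283). USP16, an H2A deubiquitinase added after its values were seen, measured 4.71, 4.79 and 4.73 on siCSRP2 and 5.36, 5.28 and 4.85 on siControl arrays (-0.42, SE 0.14, adjusted p = 0.118), and passed without siControl 3 (-0.57, adjusted p = 0.00990).

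Several members had differences near 0, with SEs of 0.12 to 0.14 beside a median SE of 0.14 over all members. Intervals of this width do not exclude small changes. UBE2K, an E2 for lysine 48 chains, had a difference of 0.02 (95% interval -0.25 to 0.29). USP47, an enzyme linked to base excision repair, had 0.05 (-0.23 to 0.33), and UBE2G1 had 0.09 (-0.22 to 0.40). USP3, which acts on H2A, had -0.02 (-0.29 to 0.25). These 4 genes lay above the median level, and none of their intervals reached beyond 0.40 on the log2 scale in either direction. They were chosen after their values were seen. PSMC3IP differed by -0.12 (SE 0.12, adjusted p = 0.597).

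Across the families, 3 of 25 UBE2 genes fell (12%) and 3 of 49 USP genes (6.12%), and none rose in either. Beside these, 6.54% of all genes and 12.7% of those above the median level fell. With the block the order turned: 5 of 25 UBE2 genes (20%) and 12 of 49 USP genes (24.5%) fell, and 2 USP genes rose. With the block 13.1% of all genes and 25.1% of those above the median level fell. The difference between the families was not tested. The median log2 difference was -0.05 over UBE2 and -0.15 over USP genes, beside 0.02 over all genes and -0.15 over all genes above the median level. The UBE2 median was 0.03 after quantile normalization, where it changed sign, and the USP median was -0.02 there. The lowest and highest differences were -1.34 and 0.33 for UBE2 and -1.22 and 0.72 for USP genes. USP genes of different level differed in this: among 34 above the median level the median was -0.21 and 3 fell, and among 15 below it the median was 0.10 and none passed. Those 15 include USP26, USP29, USP44, USP50 and USP51. The split by level was not particular to USP genes. The UBE2 median was -0.15 over 21 genes above the median level and 0.07 over 4 below it. All genes had -0.15 above that level, beside 0.02 over genes of every level. Values were also less spread on the siCSRP2 arrays, with an SD over probe sets of 1.29 to 1.32, beside 1.35 to 1.38 on siControl arrays. The part of this in the split by level was not tested.

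Groups that did not overlap were found for 19 members lower in siCSRP2 (25.3%, beside 16.2% of all genes) and for 4 higher (5.33%, beside 11.5%). Above the median level the share lower was 32.1% of members, beside 27.8% of all such genes. Of the 4 higher genes UBE2B lay above the median level, and the others below it were UBE2DNL, USP29 and USP51. By array, the USP median relative to the siControl mean of each gene was -0.20, -0.04 and -0.04 on siCSRP2 1, 2 and 3 and between 0.00 and 0.02 on the controls. For UBE2 genes it was -0.12, 0.00 and -0.03 on siCSRP2 1, 2 and 3 and between -0.02 and 0.03 on the controls.

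**Figure D5:**
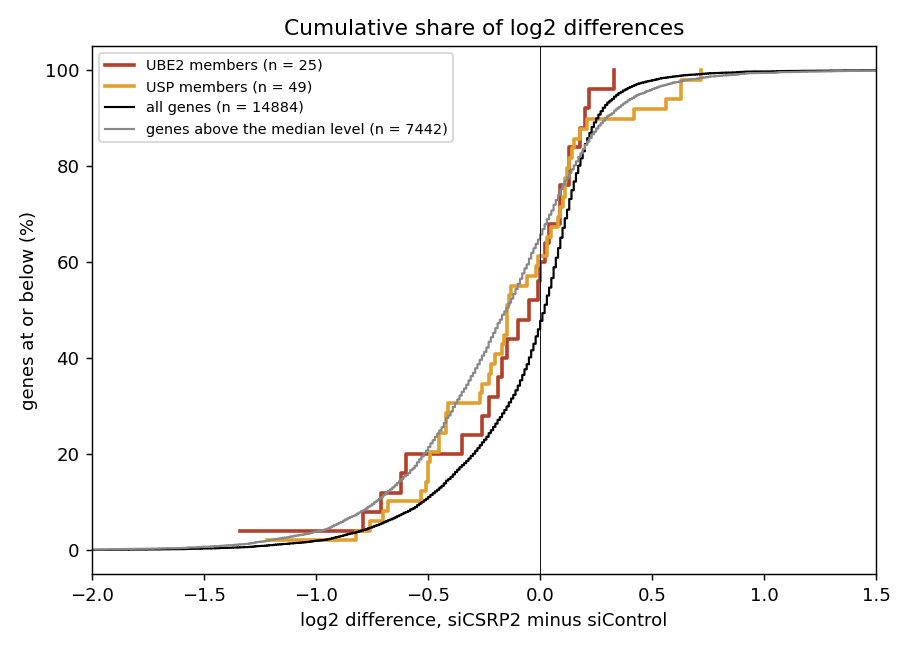
Cumulative share of genes (y axis, percent) at or below a log2 difference (x axis, siCSRP2 minus siControl) for the 25 UBE2 genes, the 49 USP genes, all 14884 genes and the 7442 genes above the median level. The USP median of -0.15 equals that of the genes above the median level, and the UBE2 median of -0.05 lies between that value and the 0.02 of all genes.

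The rest of the ubiquitin system was read from lists of 75 genes, of which 59 were measured: 11 fell, none rose and 48 did not pass, with a median of -0.23. The 11 are 18.6% of the lists, beside 6.54% of all genes and 12.7% of genes above the median level. The lists were chosen with earlier results of these data known. Of the 11, UBA3, VCP, NPLOC4, NFE2L1, JOSD1, CDC20 and ANAPC16 did not pass after quantile normalization. The share of the lists was not recounted under that scaling. With the block 18 fell (30.5%, beside 13.1% of all genes and 25.1% of those above the median level) and 3 rose, the deubiquitinase genes CYLD, OTUD1 and YOD1. These lists also lay mostly above the median level (55 of 59). Of 7 measured E1 genes, UBA7 and UBA3 fell, and with 1 array left out each passed in 2 of 6 fits. UBA3, the catalytic subunit of the NEDD8 E1, fell 1.82-fold (log2 difference -0.87, SE 0.21, adjusted p = 0.0452). It did not pass after cyclic loess (adjusted p = 0.0908) or quantile normalization (adjusted p = 0.0912). NAE1, its partner, measured 4.42, 4.46 and 3.59 on siCSRP2 and 6.09, 5.52 and 4.73 on siControl arrays, and passed with the block but not without it (-1.29, SE 0.34, adjusted p = 0.0586, and 0.00163 with the block). Without siControl 3 the NAE1 difference was -1.65 (adjusted p = 0.00356). UBA1, the main ubiquitin E1, likewise passed with the block but not without it (-0.66, SE 0.18, adjusted p = 0.0586, and 0.0162 with the block), and without siControl 3 its difference was -0.85 (adjusted p = 0.00314). UBA6, the other ubiquitin E1, differed by 0.15 (SE 0.21, adjusted p = 0.719).

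Of 15 measured genes for proteasome assembly, regulation and shuttling, all above the median level, 5 fell (33.3%, beside 12.7% of genes above that level). ADRM1, a ubiquitin receptor that is a subunit of the proteasome cap, fell 1.78-fold (log2 difference -0.83, SE 0.15, adjusted p = 0.0190). VCP, the segregase that extracts ubiquitinated proteins, fell 1.48-fold (-0.57, SE 0.14, adjusted p = 0.0443), and so did its cofactor NPLOC4 (1.68-fold, -0.75, SE 0.17, adjusted p = 0.0368). NFE2L1, the transcription factor of proteasome genes, fell 1.34-fold (-0.42, SE 0.10, adjusted p = 0.0388), and UBQLN4, a shuttle, fell 1.49-fold (-0.58, SE 0.12, adjusted p = 0.0248). The calls of VCP, NPLOC4 and NFE2L1 were lost after cyclic loess (adjusted p = 0.0876, 0.0693 and 0.0939) and quantile normalization (adjusted p = 0.0874, 0.0743 and 0.0909). Those of VCP and NFE2L1 were also lost with a trended robust spread and after quantile normalization with the block. With 1 array left out, VCP, NPLOC4, NFE2L1 and UBQLN4 each passed in 1 of 6 fits, and ADRM1 in 2. SEM1, another small subunit of the cap, differed by -0.07 (SE 0.12, adjusted p = 0.767). The proteasome chaperone POMP was at 0.02 (95% interval -0.27 to 0.31). Of 20 other deubiquitinase genes 2 fell (10%), the Josephin enzyme JOSD1 (-0.53) and COPS6 (-0.94), an inactive relative in the COP9 signalosome. JOSD1 did not pass after cyclic loess (adjusted p = 0.0749) or quantile normalization (adjusted p = 0.0952). Of 16 genes of the anaphase-promoting complex 2 fell (12.5%, near the 12.7% of genes above the median level), the activator CDC20 (-1.31) and ANAPC16 (-1.19), beside UBE2S, the E2 of the complex, which did not pass. After quantile normalization neither CDC20 (adjusted p = 0.0517) nor ANAPC16 (adjusted p = 0.0592) passed. With 1 array left out, JOSD1 and CDC20 each passed in 1 of 6 fits, ANAPC16 in 2 and COPS6 in 3.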

How the data were processed

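Total RNA of 6 Hs578T samples, 3 with CSRP2 siRNA and 3 with non-targeting siRNA, was hybridised to 1 array each. The authors deposited a log2 value for each probe set, the base being inferred from the range of the values. Per the submitters' processing notes Partek was used, and background correction, scaling and genome build were not given in the sources used here. Of 53617 probe sets 16098 had 1 gene symbol, 0 had several and 37519 had no gene listed in the platform's table. The 16098 identifiers all matched RefSeq genes (GRCh38.p14), which gave symbols and biotypes. For each of 14884 genes the probe set with the highest mean was kept, and 1 member, USP2, had more than 1. Groups came from the titles. The main test was limma 3.58.1 under R 4.3.3, with lmFit, eBayes and group alone as term. Tests were two-sided, with Benjamini-Hochberg adjustment across the 14884 genes and a cut-off of 0.05, and the code was tested on simulated data. Deviations from group means correlated at 0.30, 0.19 and 0.32 between arrays of equal number and at -0.26 to 0.05 between others, so equal numbers were treated as pairs. This rests on the values, since no label states a shared batch. Named genes are CSRP2, members past the test with or without the block, the next 5 of each family by p, and members picked for their role. Their relatives and further members were added after values were seen. Members and lists were chosen with earlier results of these data known. The alternatives were the replicate block, quantile normalization, cyclic loess, median centring, quantile normalization with the block, leaving out the dimmest 25% of genes, the mean over a gene's probe sets, a trended robust spread, and leaving out each array. No detection calls were used.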

Additional observations from a re-analysis of the deposited data

How the results depend on the processing

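Scaling and single arrays moved the counts, and scaling moved the family medians too. The arrays as deposited differed by group in scale. The SD over probe sets was 1.29 to 1.32 on siCSRP2 arrays and 1.35 to 1.38 on siControl arrays. The median over probe sets was 2.8 to 2.82 on siCSRP2 arrays and 2.7 to 2.76 on siControl arrays. The part of this in the falls of brighter genes, and in calls lost after quantile normalization, was not tested. With the replicate block, 19 members passed in place of 6 (5 UBE2, 14 USP), and 2348 genes in place of 1093. With quantile normalization and the block, 16 members passed, 4 higher and 12 lower (6 UBE2, 10 USP), and 2010 genes. Median centring gave 12 members, 8 of them USP, and 1557 genes in place of 1093 (86 higher and 1471 lower). The UBE2 median of -0.05 was 0 under cyclic loess, 0.03 under quantile normalization with or without the block, and -0.14 under median centring. The USP median of -0.15 was -0.03 under cyclic loess, -0.02 under quantile normalization with or without the block, and -0.23 under median centring. Calls over all genes were 119 higher and 974 lower, and under quantile normalization 210 higher and 666 lower. With 1 array left out, calls ranged from 0 to 23 for members, 0 to 5 for UBE2, 0 to 18 for USP and 91 to 2620 for all genes, the highest in each case without siControl 3. The UBE2 median then ranged from -0.1 to 0 and the USP median from -0.19 to -0.02, the last without siCSRP2 1. UBE2S, at 0.13, reversed to -0.05 without siCSRP2 2, its range being -0.05 to 0.23, and USP22, at -0.16, reached 0 without siCSRP2 1, its range being -0.3 to 0. Of the values for named genes, 533 kept direction and side of the threshold, 110 no longer passed, 55 newly passed and 2 reversed. The cause of these moves was not tested. With 3 arrays a group the spread is poorly known, which limits all of these, and no signal-over-background value was used.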
